A study of Mus musculus with 6 samples.

Results

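The nuclear genes that encode subunits of the mitochondrial respiratory chain and of ATP synthase were followed across 4 RNA-seq libraries of mouse blood-forming stem cells. Members were chosen by gene symbol, joined to each Ensembl identifier: the Nduf genes with a letter a, b, c, s or v and a number, Sdha to Sdhd, the Uqcr prefix, Cyc1, Cycs, the prefixes Cox4 to Cox8, and the prefix Atp5. The rule took 89 of 30409 identifiers and used no measured value; 6 names ending in -ps were left out. It does not reach Ndufab1 and Usmg5, which also encode subunits, and it takes in 2 genes whose products are not ordinary subunits, Atp5s (coupling factor B) and Cox7a2l (a factor that joins complexes III and IV into supercomplexes). Ndufa4 and Ndufa4l2 were placed with complex IV, where the Ndufa4 protein is now known to sit.

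The respiratory chain passes electrons from NADH through complex I, or from succinate through complex II, to ubiquinone, then through complex III and the mobile carrier cytochrome c to complex IV, which reduces oxygen. Complexes I, III and IV pump protons, and complex V, the ATP synthase, uses the resulting gradient to make ATP. Quiescent long-term haematopoietic stem cells are known for relying little on this pathway, and dividing progenitors for relying on it more.

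Each library came from C57BL/6 bone marrow cells sorted as Lineage-Sca1+cKit+CD34-Flk2-, the gate for long-term haematopoietic stem cells (LT-HSCs). The groups were wild type at steady state, Twist1 conditional knockout (cKO) at steady state, wild type 12 days after irradiation, and Twist1 cKO 12 days after irradiation, with 1 library each. Twist1 is a transcription factor of the basic helix-loop-helix family, and the series asks whether it restrains mitochondrial genes in these cells. The sources used here do not give the allele or Cre driver behind the deletion, the radiation dose, the age and sex of the mice or the number of animals pooled. Groups of 1 library give no replicate spread; an additive fit of genotype and irradiation would leave 1 residual degree of freedom, which is their interaction, and no test was run. Intervals below cover counting error only. In bulk libraries, fewer cells of a type and less RNA per cell cannot be told apart.

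Levels are the authors' FPKM, that is, fragments or reads scaled to gene length and sequencing depth. Between 20298900 and 25031953 reads per library were recovered from them. In irradiated wild type the recovered reads (24693043) exceeded the library size that the FPKM implied (22146433), and in the other libraries they were below it. Folds of deposited FPKM carry this scaling, and their counting intervals do not cover it. Twist1 itself was near the detection limit, with 6 reads in wild type and 2 in cKO before irradiation and 5 and 0 reads after it, too few for a check of the labels. The genes that the LT-HSC gate and phenotype select for were lower in the irradiated libraries: Kit was at 20.1 and 27.6 FPKM in the steady-state libraries against 8.52 and 4.98 FPKM in the irradiated ones, and Procr at 51.3 and 66.1 FPKM against 0.333 and 1.22 FPKM. Cd48, which the most primitive cells lack, was present in every library and was highest after irradiation (337 and 259 FPKM against 100.3 and 81.3 FPKM). Of 8 such genes tested, all 8 were at least 1.5-fold lower after irradiation in wild type and 7 in cKO, Ly6a being the exception. Of the genes the gate selects against, Cd34 was at 18.4 and 29.2 FPKM in the steady-state libraries against 0.155 and 0.322 FPKM in the irradiated ones, and Flt3, which encodes Flk2, at 6.26 and 9.32 against 0.519 and 1.32 FPKM. The irradiated libraries were thus lower for both kinds of gate gene. Red cell genes moved the other way: all 9 erythroid markers tested in wild type and all 10 tested in cKO were at least 1.5-fold higher after irradiation, and their summed level was 4042 and 2650 FPKM at steady state against 13619 and 16683 FPKM after it. Klf1, an erythroid transcription factor, was at 93.5, 70.0, 703 and 427 FPKM. Transcripts of the sex chromosomes also divided the libraries by condition, with Ddx3y at 10.2 and 12.4 FPKM in the steady-state pair against 0.0521 and 0.0164 FPKM in the irradiated pair. Xist ran the other way, at 0.0171 and 0.0155 FPKM against 1.003 and 0.573 FPKM. The part of these other differences in the values below was not tested. Where they divide the libraries by condition, they cannot be told apart from irradiation.

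Of the 89 members, 78 were at 5 FPKM or more in all 4 libraries and 11 were below 5 FPKM in all 4, so the filter on low values kept or dropped each member whole. The 78 comprise 34 of 35 complex I genes, all 4 of complex II, all 9 of complex III, cytochrome c (Cycs), 13 of 20 of complex IV and all 17 of complex V; none of 3 gene copies (Cox6c2, Ndufb4c, Ndufs6b) was among them. These were abundant transcripts. Their median at steady state was 165 FPKM in wild type and 140.4 FPKM in cKO, against 377 and 237 FPKM in the irradiated libraries, where the median of all genes at 5 FPKM or more lay between 16.6 and 21.6 FPKM. In the wild-type steady-state library 51 of the 78 were in the highest 10% of those genes, and in the irradiated wild-type library 57. Summed over all 89 members, the 4 libraries gave 16634, 13233, 36238 and 22695 FPKM, or 2.74%, 2.76%, 6.23% and 4.44% of all FPKM in the library.

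**Figure D1:**
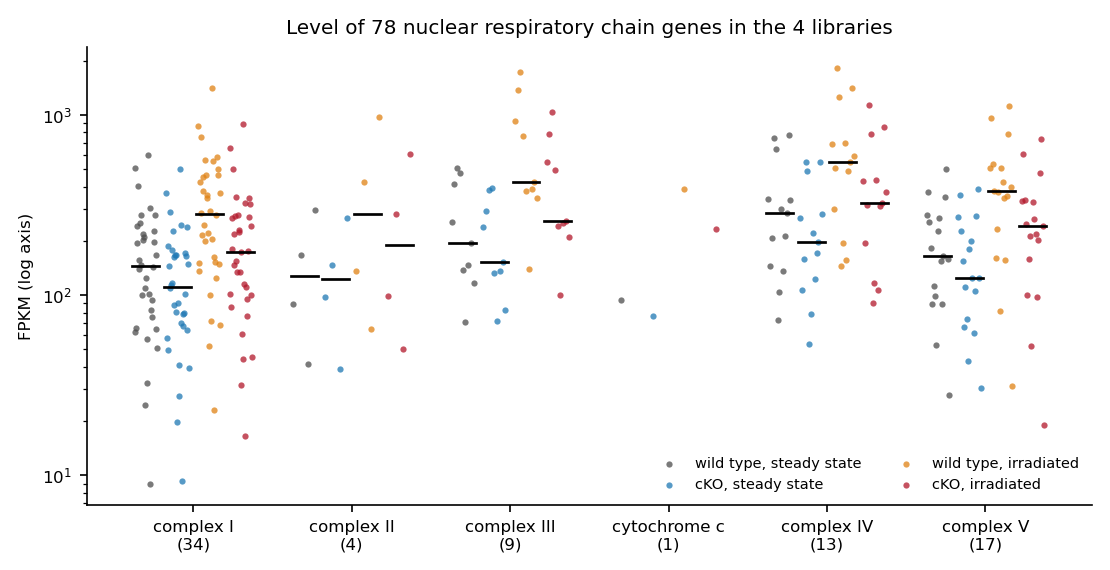
FPKM (log axis) of the 78 members in each of the 4 libraries, grouped by complex, with the number of genes in brackets; each point is 1 gene and the black line is the median of the complex. In every complex the irradiated wild-type library has the highest median, and complex IV has the highest median of the complexes in each library (283.9, 198, 549.8 and 324 FPKM).

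Levels within a complex were far from equal although the proteins assemble in fixed ratios. Ndufs1, the largest iron-sulphur subunit of complex I, was the lowest of the 78 in every library, at 8.93, 9.31, 23.1 and 16.6 FPKM (wild type and cKO at steady state, then both genotypes after irradiation). Ndufb9, an accessory subunit of the membrane arm, was the highest of complex I at 599.6, 499.5, 1412 and 892 FPKM. At the top of all members stood 2 small complex IV subunits: Cox8a in the wild-type steady-state library (776 FPKM) and Cox6a1 in the other 3 (551, 1825 and 1137 FPKM). Ndufs1 was therefore at the bottom of every library in FPKM, and Cox8a or Cox6a1 at the top. FPKM divides by gene-model length, which was 545 bases for Cox8a, 702 for Cox6a1 and 963 to 8086 for the complex I core subunits. The part of length in this order was not tested.

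Irradiation went with higher respiratory chain transcripts in both genotypes. Every one of the 78 had a higher FPKM in the irradiated than in the steady-state wild-type library, where 56.8% of all 7418 genes tested did. In the cKO pair 75 of 78 did, where 42.3% of all 7393 genes tested did; the exceptions were Atp5s, Cox7a2l and Ndufs4. Because the median of all genes tested also moved between libraries (0.21 on the log2 scale for irradiation in wild type, -0.20 in cKO), differences below are differences in log2(FPKM + 1) less that median, called relative log2 differences, unless said otherwise. On this scale the members' median was 0.82 in wild type and 0.90 in cKO. At least 1.5-fold higher were 63 of 78 in wild type, against 26.7% of all genes tested, and 68 of 78 in cKO, against 28% of all genes tested. No member was 1.5-fold lower in either genotype, against 31.7% and 28% of all genes.

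Abundant genes as a whole were higher after irradiation, and the members are read against that background. Among all genes that reached 100 FPKM in either library, 55.3% in wild type and 58.4% in cKO were at least 1.5-fold higher, and their median relative difference was 0.68 and 0.71. The members at that level had medians of 0.83 and 0.95. When only genes at 50 FPKM or more were tested and centred on their own median, the members' medians were 0.26 and 0.31. The count of members 1.5-fold higher was then 11 of 76 in wild type, against 19.7% of 2085 genes, and 11 of 72 in cKO, against 18.9% of 1767 genes. Over all settings tried the members' median lay between 0.26 and 1.07 in wild type and between 0.31 and 0.92 in cKO, so the size depended on which genes the family was set against.

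**Figure D2:**
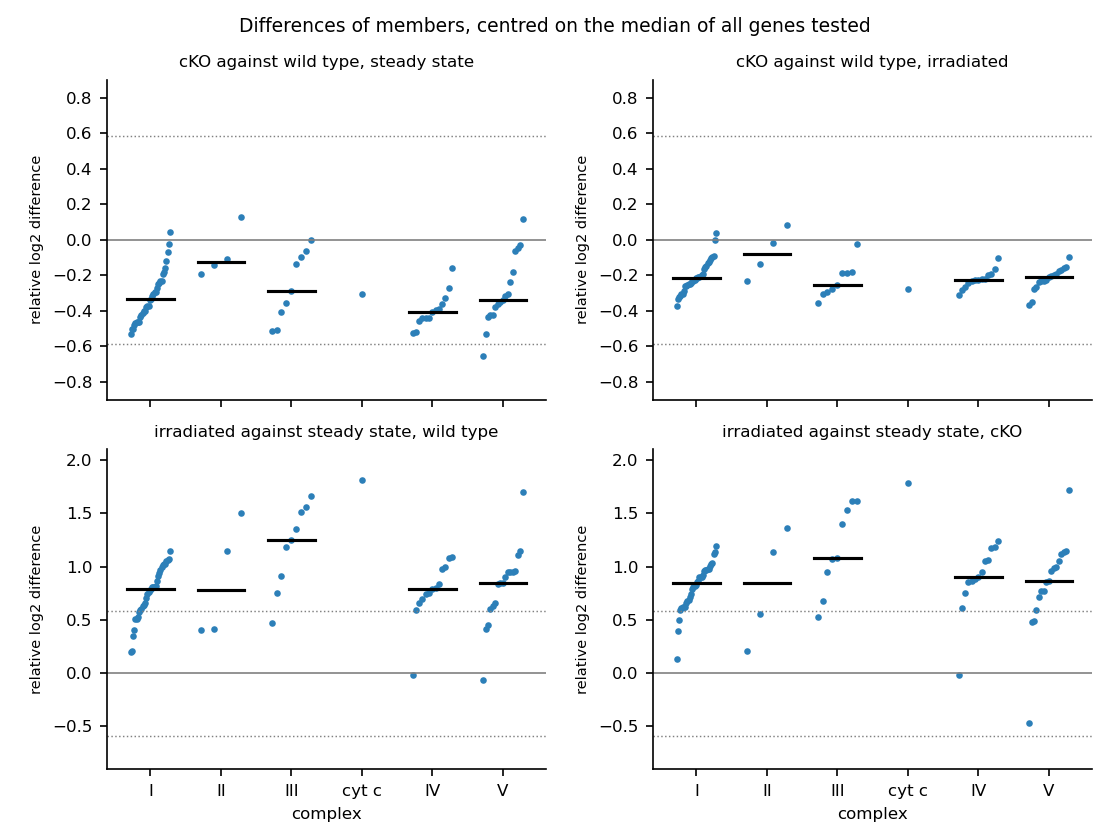
Relative log2 differences of the 78 members in the 4 comparisons, by complex; each point is 1 gene, black lines are medians, the solid line at 0 is the median of all genes tested and dotted lines mark 1.5-fold. Points lie mostly above the upper dotted line for irradiation and between the dotted lines, mostly below 0, for genotype.

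Complex I, which oxidises NADH, was higher almost throughout. Of its 34 genes 26 were at least 1.5-fold higher in wild type (median 0.79) and 31 in cKO (median 0.84). Of all genes tested 26.7% and 28% were, and of those that reached 100 FPKM 55.3% and 58.4%. These shares also belong beside the counts for complexes III, IV and V below. The 7 core subunits of complex I, which carry the flavin, the iron-sulphur clusters and the quinone site, were all at least 1.5-fold higher in both genotypes, with medians of 0.94 and 0.83. Of the 27 accessory subunits at this level, 19 and 24 were (medians 0.74 and 0.85). The highest was Ndufs6, a zinc-binding accessory subunit, at 228, 172, 584 and 346 FPKM (wild type and cKO at steady state, then wild type and cKO after irradiation, the order used for every set of 4 values). Both irradiated libraries were above both steady-state ones, and the relative differences were 1.15 and 1.20. The share of all genes with that order of libraries was not counted, for this gene or for those below. The libraries of a condition differ in genotype and are not replicates. At the other end was Ndufs4, an accessory subunit of the matrix arm, at 93.7, 80.0, 125 and 76.8 FPKM, and Ndufv3, a small accessory subunit of the NADH-oxidising end, at 51.1, 39.4, 68.1 and 45.2 FPKM. For both genes the irradiated cKO library was below the steady-state wild-type library, so the groups overlapped, and the relative differences were 0.21 and 0.14 for Ndufs4 and 0.20 and 0.39 for Ndufv3.

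Complex II, succinate dehydrogenase, split into a pair with larger and a pair with smaller irradiation differences. Sdhd, a membrane anchor, was at 296, 269, 971 and 605 FPKM, and Sdhb, the iron-sulphur subunit, at 166, 146, 425 and 282 FPKM. Both irradiated libraries were above both steady-state libraries for these genes, and also for Sdha and Sdhc below, so this order does not separate the pairs. Its share over all genes was not counted. Sdhd was 3.28-fold higher after irradiation in wild type (95% counting interval 3.21 to 3.36) and 2.25-fold in cKO (2.19 to 2.31), as folds of deposited FPKM. Sdha, the flavoprotein that oxidises succinate, was at 89.3, 98.2, 137 and 98.8 FPKM, and Sdhc, the other anchor, at 41.6, 38.7, 64.5 and 49.95 FPKM. In cKO, Sdha was nearly the same in both conditions. The relative differences were 1.51 and 1.36 for Sdhd, 1.14 and 1.14 for Sdhb, 0.41 and 0.21 for Sdha and 0.42 and 0.56 for Sdhc. Sdhd and Sdhb were above Sdha and Sdhc in each genotype.

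Complex III had the highest median of the complexes, 1.25 in wild type and 1.08 in cKO, and 8 of its 9 genes were at least 1.5-fold higher in each. Its electron-carrying subunit Cyc1, cytochrome c1, was at 254, 239, 929 and 551 FPKM, a relative difference of 1.66 and 1.40. The small subunits Uqcr11 (509, 386, 1735 and 1036 FPKM) and Uqcr10 (416, 294, 1375 and 787 FPKM) had relative differences of 1.56 and 1.62 and of 1.52 and 1.62. Both were below Cyc1 in wild type and above it in cKO. Uqcrq, which binds next to cytochrome b, was at 117, 82.4, 347 and 209.7 FPKM. For these 4 genes both irradiated libraries were above both steady-state ones, an order whose share over all genes was not counted. The gene of the complex that did not reach 1.5-fold was Uqcrb, another small subunit, at 476, 391, 763 and 493 FPKM (0.47 and 0.53). It had the same order of libraries, so that order does not set the 4 genes apart. Uqcrb was above Cyc1 and Uqcr10 at steady state and below both after irradiation.

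Cycs, cytochrome c, had the largest relative difference of the 78 in both genotypes. This soluble protein carries electrons from complex III to complex IV and also activates caspases once released to the cytosol. It was at 94.6 FPKM (95% counting interval 92.6 to 96.6) and 76.9 FPKM (75.03 to 78.8) in the steady-state libraries, and at 387 FPKM (383 to 392) and 234 FPKM (230.2 to 237) in the irradiated ones. Both irradiated libraries were above both steady-state ones here too, and the share of all genes with that order was not counted. The relative differences were 1.82 in wild type and 1.79 in cKO, and the folds of deposited FPKM were 4.10 (3.998 to 4.20) and 3.04 (2.95 to 3.13).

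Complex IV was even apart from 1 gene. Of its 13 abundant genes 12 were at least 1.5-fold higher in each genotype, with medians of 0.79 and 0.90 and the highest value for Cox6a1 (743, 551, 1825 and 1137 FPKM; 1.09 and 1.24). Cox4i1, the largest nuclear subunit, was at 342, 267, 687 and 431 FPKM, and Cox5b, a zinc-binding subunit, at 208, 159, 507 and 317 FPKM. Cox7a2l stood outside this pattern at 137, 123, 156 and 106 FPKM. Its highest and its lowest library were both irradiated ones, and its relative differences were -0.02 and -0.01. Its paralogue Cox7a2, a structural subunit of the enzyme, was at 301, 221, 694 and 437 FPKM, so that the Cox7a2l level was 45.4% and 56.0% of the Cox7a2 level before irradiation and 22.5% and 24.4% of it afterwards.

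Complex V was uneven along its parts. Of 17 genes 14 were at least 1.5-fold higher in each genotype (medians 0.85 and 0.87). The catalytic head F1 had Atp5b, the beta subunit that carries the catalytic sites, at 373, 359, 955 and 609 FPKM, and Atp5a1, the alpha subunit, at 278, 271, 508 and 331 FPKM. Alpha and beta stand in equal number in the enzyme, and their relative differences were 0.66 and 0.49 for Atp5a1 and 1.15 and 0.96 for Atp5b. The lowest irradiation difference of the 78 in both genotypes was that of Atp5s, at 28.1, 30.7, 31.1 and 18.98 FPKM; the irradiated cKO library was lowest, and the relative differences were -0.06 and -0.47.

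The c subunit, which forms the rotating ring of ATP synthase, showed the clearest difference between isoforms. Atp5g1, Atp5g2 and Atp5g3 encode the same mature protein behind different import sequences. Atp5g1 was at 98.9, 74.0, 373 and 214 FPKM and was second to Cycs in relative difference in both genotypes (1.697 and 1.72). Its folds of deposited FPKM were 3.77 (3.69 to 3.84) in wild type and 2.89 (2.82 to 2.96) in cKO. Atp5g2 was at 52.9, 42.9, 82.1 and 52.2 FPKM (0.42 and 0.48), and its irradiated cKO library lay just under its steady-state wild-type library. Atp5g3, the highest in FPKM, was at 227, 180.2, 507 and 328 FPKM (0.95 and 1.06). FPKM divides by gene-model length, recovered as 4912 bases for Atp5g1, 1675 for Atp5g2 and 2181 for Atp5g3. In recovered reads Atp5g1 was just below Atp5g3 at steady state (12652 against 12863 and 9173 against 9918). After irradiation it was above Atp5g3 (40526 against 24468 and 24650 against 16762). The order of the isoforms and the shares below therefore depend on these lengths. The Atp5g1 share of the summed c-subunit FPKM was 26.1% and 24.9% in the steady-state libraries against 38.8% and 36.0% in the irradiated ones, while the Atp5g2 share was 14.0% and 14.4% against 8.54% and 8.80%.

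**Figure D3:**
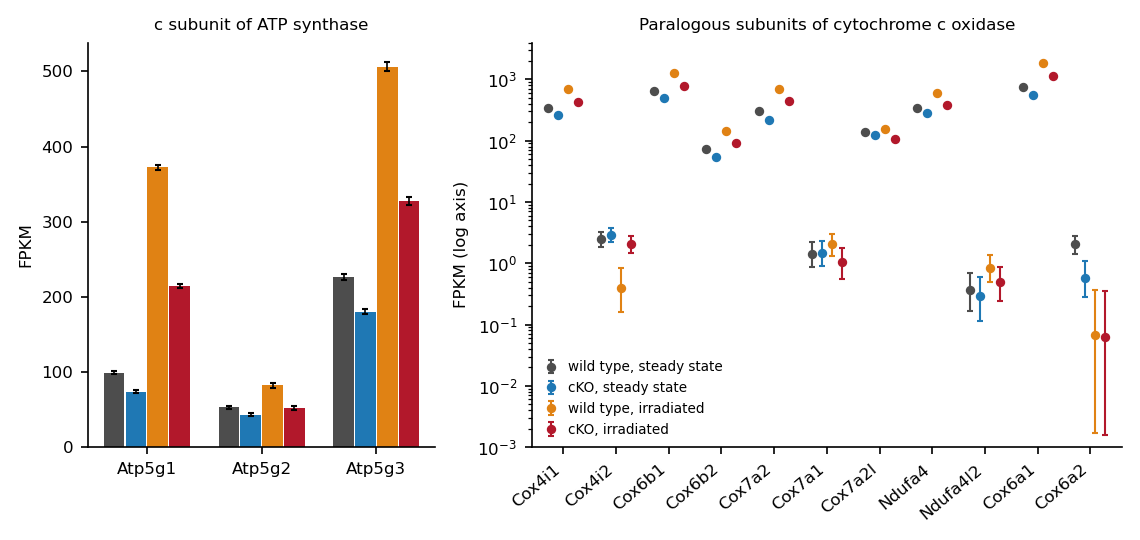
FPKM of the 3 c-subunit genes (left, linear axis from 0) and of paralogous complex IV genes (right, log axis) in the 4 libraries; error bars are 95% counting intervals. Atp5g1 differs most between conditions among the c-subunit genes, and the isoforms Cox4i2, Cox7a1, Ndufa4l2 and Cox6a2 lie at or below 2.92 FPKM in every library.

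The upstream sequences of Atp5g1 and Atp5g2 are shown because these genes make 1 protein and differed in response, with those of Cycs and Cox7a2l, which stood at opposite ends of the family. Each is the part of the 250 bases before the start in RefSeq's GRCm38.p6 promoter table that lies outside the annotated gene, on the minus strand, written 5′ to 3′: Atp5g1 at chr11:96075695-96075881, Atp5g2 at chr15:102671048-102671297, Cycs at chr6:50566570-50566819 and Cox7a2l at chr17:83514334-83514583. For Atp5g1 that part is 187 bases, because another annotated start lies further out. The Atp5g3 window lies wholly inside its gene (chr2:73908447-73912464), so it is not an upstream sequence of the whole gene and is not shown. Capitals mark matches on either strand to the palindrome bound by NRF1 (the run of capitals in the Atp5g2 line), CCGGAAG (ETS factors such as GABP), AAGATGGCG (YY1) or CCAAT (NF-Y).
Atp5g1: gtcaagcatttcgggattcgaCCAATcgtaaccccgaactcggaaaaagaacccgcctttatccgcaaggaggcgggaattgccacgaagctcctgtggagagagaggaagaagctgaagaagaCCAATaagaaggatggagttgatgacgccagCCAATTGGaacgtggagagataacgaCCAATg
Atp5g2: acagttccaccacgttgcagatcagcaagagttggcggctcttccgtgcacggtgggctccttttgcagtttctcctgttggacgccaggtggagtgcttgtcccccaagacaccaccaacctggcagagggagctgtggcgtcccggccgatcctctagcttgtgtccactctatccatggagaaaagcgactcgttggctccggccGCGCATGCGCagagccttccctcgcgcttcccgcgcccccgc
Cycs: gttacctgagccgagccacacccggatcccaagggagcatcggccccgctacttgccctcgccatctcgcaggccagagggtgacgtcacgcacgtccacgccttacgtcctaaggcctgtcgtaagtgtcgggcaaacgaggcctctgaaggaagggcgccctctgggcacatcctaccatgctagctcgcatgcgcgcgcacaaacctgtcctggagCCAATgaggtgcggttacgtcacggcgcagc
Cox7a2l: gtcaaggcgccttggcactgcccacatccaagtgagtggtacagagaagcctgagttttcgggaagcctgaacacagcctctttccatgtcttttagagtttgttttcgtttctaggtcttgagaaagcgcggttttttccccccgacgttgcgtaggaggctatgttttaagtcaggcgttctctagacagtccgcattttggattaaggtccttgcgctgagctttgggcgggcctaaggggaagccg
The line of Atp5g1 holds 5 CCAAT matches, of which 2 overlap in the run CCAATTGG; Cycs holds 1, Atp5g2 holds 1 NRF1 match, and Cox7a2l holds none of the 4 motifs. As many CCAAT matches were found in 89 of 32851 RefSeq promoter windows of 300 bases (0.271%) and in 2 of the 74 members' windows, the other being that of Atp5b. Only exact matches were counted. The Cycs line holds tcgcatgcgc, which differs from the NRF1 letters in 1 base and is not marked.

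Promoter windows (250 bases before to 50 after the start, which for a gene with several starts can lie inside it) were matched for 69 of the 89 members, 74 windows in all. Those not matched included Atp5a1, Atp5mpl, Cox4i1, Cox4i2, Cox6a2, Cox6c, Cox6c2, Cox8c, Cyc1, Ndufa2, Ndufa4l2, Ndufb4c, Ndufb9, Ndufs1, Ndufs6b, Sdhc, Uqcrb, Uqcrc2 and Uqcrq. The NRF1 letters were in 6.76% of the members' windows (Atp5g2, Atp5k, Cox6a1, Ndufa11 and Uqcrc1) against 0.971% of all 32851 windows. The YY1 letters were in 9.46% against 1.40%, the ETS letters in 21.6% against 8.86%, and CCAAT in 43.2% against 37.4%. NRF1, GABP and YY1 are the factors classically tied to respiratory chain promoters. The E-box CANNTG, the kind of site bound by basic helix-loop-helix factors, was in 68.9% of the members' windows and 72.3% of all windows, and its form CATATG in 1.35% and 3.91%. A match is only a match of letters. The median irradiation differences in wild type of members with a motif and members without it were 0.90 (5 genes) and 0.82 (60 genes) for NRF1, 0.91 (16) and 0.82 (49) for ETS, 0.79 (7) and 0.84 (58) for YY1, and 0.77 (28) and 0.84 (37) for CCAAT.

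The irradiation differences of the 78 members ran in nearly the same order in both genotypes. Across genes, which are not independent replicates, Spearman's rho between the wild-type and the cKO difference was 0.89 over the 78 members and 0.81 over 5704 genes tested in all 4 comparisons. The 4 libraries of these pairs are separate. Of the 10 members with the highest differences, 7 were shared between genotypes (Atp5g1, Cyc1, Cycs, Sdhd, Uqcr10, Uqcr11 and Uqcrq), and of the 10 lowest, 8 were (Atp5g2, Atp5s, Cox7a2l, Ndufa13, Ndufs4, Ndufv3, Sdha and Sdhc).

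**Figure D4:**
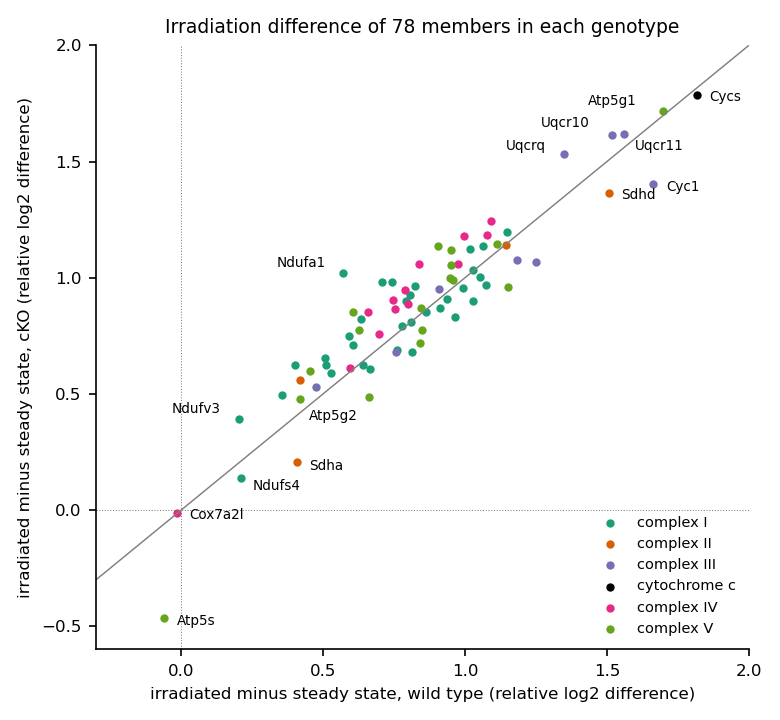
Relative log2 difference between irradiated and steady-state libraries for the 78 members, wild type on the horizontal and cKO on the vertical axis; each point is 1 gene, coloured by complex, and the diagonal marks equal differences. Cycs and Atp5g1 lie at the upper right and Cox7a2l and Atp5s at the lower left.

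Other genes of the pathway went partly with the members. Of all genes tested, 26.7% in wild type and 28% in cKO were at least 1.5-fold higher after irradiation, and 31.7% and 28% were lower. Mitochondrial ribosome genes, which serve translation of the mitochondrial subunits, were close to them: 64 of 77 tested were at least 1.5-fold higher in wild type (median 0.98) and 65 of 76 in cKO (0.91). Assembly factors, which build the complexes, had 20 of 37 and 14 of 33 higher (0.60 and 0.54), and tricarboxylic acid cycle enzymes 8 of 13 and 5 of 13 (0.67 and 0.46). The partner subunits encoded in mitochondrial DNA lay on the other side of the all-gene median, with medians of -0.81 in wild type and -0.45 in cKO. At least 1.5-fold lower were 6 of 11 of these subunits tested in wild type and 3 of 10 in cKO, with 1 and 0 higher. The cKO count was near the share of all genes. Their summed level was 2221, 3056, 2145 and 2073 FPKM. Among the regulators, the coactivator gene Ppargc1a was at 0.280, 0.313, 0.151 and 0.252 FPKM, Nrf1 at 4.87, 5.24, 6.88 and 6.11 FPKM, Gabpa at 4.29, 4.47, 6.503 and 4.57 FPKM, Esrra at 2.01, 1.15, 2.03 and 1.73 FPKM, Tfam, which packages mitochondrial DNA, at 17.5, 17.5, 24.9 and 16.7 FPKM, and Yy1 at 8.82, 5.76, 5.55 and 3.28 FPKM. None of the 8 regulators tested in wild type and 6 in cKO was 1.5-fold higher after irradiation, and 2 and 1 were 1.5-fold lower. The ribosomal proteins of the cytosol, another family of abundant transcripts, had medians of 0.70 and 0.75.

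The cKO library had lower FPKM of respiratory chain transcripts than the wild-type library at steady state, by small amounts. As a share of all FPKM in the library the 89 members were nearly equal, at 2.74% in wild type and 2.76% in cKO. Their recovered reads were 2.17% and 1.81% of the library size that the FPKM implied. The size of the difference thus depends on the scaling, while the members' median stayed below 0 in every setting run. Of 78 members 74 had a lower FPKM in cKO, where 48.5% of all 7157 genes tested did; the 4 that were higher were Atp5s, Ndufs1, Sdha and Uqcrc2. The members' median relative difference was -0.34, with the all-gene median at 0.01. Only Atp5k was past 1.5-fold (1 of 78 lower, against 5.63% of all genes tested), and no member was 1.5-fold higher, against 1.72%. Atp5k, the membrane subunit e at which ATP synthase dimers meet, was at 164 FPKM (158 to 171) in wild type and 105 FPKM (99.7 to 110.0) in cKO. It was 1.57-fold lower in deposited FPKM (1.47 to 1.67), a relative difference of -0.65. Genes at 100 FPKM or more also lay below the all-gene median here, at -0.21, against -0.36 for the members at that level. Macrophage markers were lower in the same cKO library (9 of 10 at least 1.5-fold, summed level 1379.6 against 2680.1 FPKM) and neutrophil markers higher (8 of 9, 2711 against 1625 FPKM). Also at least 1.5-fold lower were 5 of 8 erythroid markers (summed level 2650 against 4042 FPKM), 3 of 5 B and plasma cell markers and 3 of 3 stromal markers, and none of 4 T and NK cell markers. Their part in the members' difference was not tested.

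The small steady-state difference was unequal between core and other subunits, and in complex V between F1 and the rest, which includes the c ring. In complex I the 7 core subunits had a median of -0.16 and the 27 accessory ones -0.38. In complex III the 4 core subunits had -0.08 and the 5 small ones -0.41, and in complex V the 5 of F1 -0.18 and the 11 of Fo and the stalk -0.36. The groups overlapped in complex I (-0.25 to 0.05 and -0.53 to -0.12) and complex V (-0.43 to -0.05 and -0.65 to -0.03). Gene-model length moved with this division in complexes I and III, with medians of 2178 against 1032 bases and 1957.5 against 876 bases, but not in complex V (1928 against 2181 bases). Across genes, longer genes had higher relative differences in this comparison, with a rho of 0.51 over the 78 members and 0.36 over all genes. Over all genes the median was -0.30 below 1000 bases, -0.09 from 1000 to 2000, 0.01 from 2000 to 3000 and 0.06 above 3000, and for the members it was -0.41, -0.34, -0.19 and -0.18. The members' median was thus below that of all genes in each length range, and the median of all genes under 1000 bases was itself below 0. When genes and members under 1000 bases were centred on those genes alone, the members' median was -0.11. At the extremes within complexes, Ndufc1, an accessory membrane subunit of complex I, was at 101 and 70.3 FPKM (-0.53), Cox7c of complex IV at 284 and 198 FPKM (-0.53), and Uqcrq at 117 and 82.4 FPKM (-0.51), while Sdha was at 89.3 and 98.2 FPKM (0.13).

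**Figure D5:**
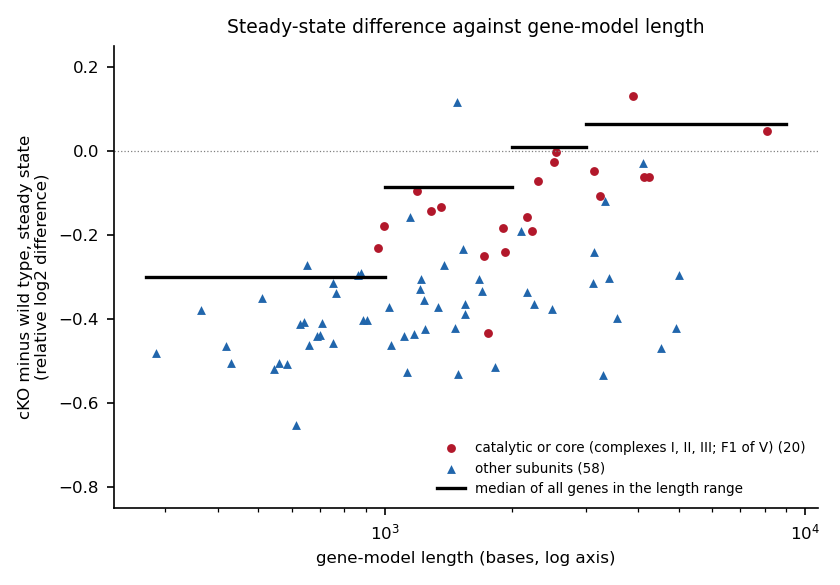
Relative log2 difference of cKO against wild type at steady state by gene-model length (log axis) for the 78 members. Circles are subunits classed as core or as F1 of complex V, triangles are the others, and black bars are the median of all genes in each length range. Circles lie mostly above triangles, and both the bars and the members rise with length.

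After irradiation the cKO library was again lower for respiratory chain transcripts, but most genes were. All 78 members had a lower FPKM in cKO than in wild type, where 87.5% of all 6348 genes tested did, and the all-gene median was -0.45. Relative to it the members' median was -0.22, and none was past 1.5-fold in either direction, against 0.977% of all genes lower and 10.7% higher. As deposited and without centring, 65 of the 78 were at least 1.5-fold lower, against 24.6% of all genes tested, with a median of -0.67. Genes at 100 FPKM or more had a relative median of -0.16. The lowest members were Ndufc1 (204 and 115 FPKM; -0.37) and Atp5k (355 and 202 FPKM; -0.37), which had also been the lowest of their complexes at steady state. The highest was Sdhc (64.5 and 49.95 FPKM; 0.09). Markers of other cells were at least 1.5-fold higher in this cKO library relative to the same median: 8 of 8 of neutrophils, 10 of 10 of macrophages, 7 of 10 of erythroid cells (1 lower), 4 of 5 of B and plasma cells and 5 of 5 of T and NK cells. Of 2 stromal markers 1 was lower. Their part in the members' values was not tested.

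The genotype differences of the members were less spread after irradiation than before it, though not smaller as deposited. Without centring, their median was -0.67 after irradiation and -0.33 at steady state. Their rho with gene-model length was 0.22 and 0.51 in the same order. The SD over the 78 members was 0.09 on the relative log2 scale against 0.17 at steady state, and across genes the rho between the genotype differences in the separate pairs was 0.51 over the members and 0.15 over 5704 genes. Setting the irradiation difference in cKO against that in wild type gave a relative median of 0.05 over the members, and this value changed sign under several settings, from -0.35 to 0.10. Within it, all 7 complex I core subunits were below 0 (median -0.10) while 20 of 27 accessory ones were above (0.10). All 4 complex III core subunits were below (-0.15) while all 5 small ones were above (0.06). In complex V the F1 genes were divided, 3 below and 2 above, and 10 of 11 of Fo and the stalk were above. All 13 of complex IV were above. The 0 is the median of all genes tested, with 3886 genes on each side, so these counts also depend on the centring. With length the rho was -0.49 over the members and -0.20 over all genes. The members farthest from 0 were Atp5s (-0.41) and Ndufa1 (0.45).

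Ndufa1, an accessory subunit of the complex I membrane arm, is 1 of 3 X-linked members with Ndufb11 and Cox7b. It was at 505, 368, 865 and 651 FPKM. In wild type its relative irradiation difference was 0.57 and in cKO 1.02, and its irradiated genotype difference (0.04) was the highest of complex I. Ndufb11, also of complex I, was at 219.6, 167, 360.1 and 229 FPKM (0.51 and 0.65) and Cox7b, of complex IV, at 214, 171, 486 and 311 FPKM (0.98 and 1.06), so the X-linked members did not move as 1 group. Ndufa1 overlaps Rnf113a1 and Ndufb11 overlaps Rbm10, and strand use in counting is not given. Xist and Ddx3y divided the libraries by condition. The part of sex or of overlapping genes in the values of the X-linked members was not tested.

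Muscle and other tissue-restricted isoforms of complex IV were close to silent, with 1 exception. Cox4i2, the isoform of lung and hypoxic cells, was at 2.49, 2.92, 0.401 and 2.06 FPKM, at most 1.09% of Cox4i1. In the irradiated wild-type library it had 7 reads, 6.20-fold lower in deposited FPKM than at steady state (2.80 to 16.2). Cox6a2, the heart and skeletal muscle isoform, was at 2.03 FPKM (36 reads) and 0.583 FPKM (10 reads) at steady state, 3.49-fold lower in cKO (1.697 to 7.89), and had 1 read in each irradiated library. Both genes overlap another gene (Bcl2l1 and Itgad), and the sources used here do not say whether counting used strand, so reads of either gene cannot be told apart. Cox7a1, also a muscle isoform, was at 1.44, 1.48, 2.03 and 1.04 FPKM, Ndufa4l2, a hypoxia-induced paralogue, at 0.360, 0.289, 0.847 and 0.489 FPKM, and Cox7b2, a testis paralogue, at 0.213, 0.365, 1.33 and 0.315 FPKM. Cox8b was listed at 0 except in irradiated wild type, and Cox8c at 0 except in irradiated cKO. Markers of skeletal muscle were at or near 0 too, with a summed level of 0.228 to 0.731 FPKM over 5 genes.

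Cox6b2 was the exception. Known as the testis isoform of subunit VIb, it was at 72.5 FPKM (69.4 to 75.7) and 53.5 FPKM (50.8 to 56.2) in the steady-state libraries, and at 145 FPKM (141 to 150.1) and 90.6 FPKM (87.0 to 94.4) in the irradiated ones. Cox6b1, the general isoform, was at 648, 491, 1260.4 and 779 FPKM. Cox6b2 thus kept to 11.2%, 10.9%, 11.5% and 11.6% of Cox6b1 in the 4 libraries. Its RefSeq gene overlaps no other gene in the table used, and the sources used here do not say how reads matching more than 1 gene were treated. The testis markers Prm1 and Ldhc summed to between 0.267 and 1.21 FPKM.

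Ndufb2, a general accessory subunit of complex I, was the only member below 5 FPKM that is neither a paralogous isoform nor a copy, at 0.935, 1.17, 1.33 and 1.22 FPKM over a recovered gene-model length of 5628 bases, the longest but 1 of the family. Of the copies, Cox6c2 was at 3.16, 2.57, 3.91 and 1.66 FPKM and Ndufb4c at 1.77, 1.42, 2.32 and 1.64 FPKM, at most 3.27% and 1.76% of their parent genes Cox6c and Ndufb4. Ndufs6b was listed at 0 in wild type at steady state and at 1.17 FPKM at most. Reads of such near-copies are uncertain where counting could split them.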

How the data were processed

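RNA-seq FPKM per gene was used from 4 libraries, 1 per group, with 30409 identifiers each. The FPKM values were made by the authors; HOMER, MACS2 2.1.0, Bowtie, BWA 0.7.12-r1039 and mm10 are named for the series in the submitters' processing notes, and the sources used here do not say which tool made the FPKM. Both ATAC-seq samples were left out. Of the identifiers 30231 had a symbol; positions are GRCm38.

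Differences in log2(FPKM + 1) were taken for genes that reached 5 FPKM in either library of a comparison and centred on the median of all genes tested; 1.5-fold was counted. No test was run: groups of 1 library have no replicate spread, and an additive fit would leave 1 residual degree of freedom. Whole reads were recovered from the FPKM for 100% of identifiers, with lengths equal to RefSeq's for 12 of 13 mitochondrial genes (tolerance 0.02 reads), and gave exact 95% intervals (Clopper-Pearson for FPKM, conditional binomial for folds); these read numbers may be too low by an integer factor. Reads came to 25031953, 22060031, 24693043 and 20298900 in steady-state wild type, steady-state cKO, irradiated wild type and irradiated cKO. The library sizes implied by the FPKM were 26031985, 25239648, 22146433 and 23450734 in the same order. Size over reads was thus 1.04, 1.14, 0.897 and 1.16. The procedure was tested on simulated data.

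Members and gene lists were chosen with earlier results of these data known. Named genes were the highest and lowest of each complex in level and in each difference, paralogous isoforms, X-linked members, members past 1.5-fold and a few regulators and markers; others were chosen after their values were seen. Of the 89 members, 28 overlap another RefSeq gene, and strand use in counting is not given. Tools were Python 3.11.15, pandas 2.3.3, numpy 2.4.6, scipy 1.17.1 and matplotlib 3.10.9.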

Additional observations from a re-analysis of the deposited data

How the results depend on the processing

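No paired analysis was possible because each group holds 1 library, and for the same reason no replicate could be left out. Of 169 recomputed values 102 stayed close to the reported ones, 61 moved and 6 changed sign. All 6 concern the difference of irradiation differences, with a members' median of -0.035 at a pseudocount of 5, -0.082 at a minimum of 1 FPKM, -0.35 with no minimum, -0.35 as deposited, -0.12 scaled to recovered read totals and -0.13 among genes under 1000 bases. The other medians kept their sign under every setting run. Values that moved follow; the cause was not tested unless the setting itself tests other genes.

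Medians over the members are given for irradiation in wild type, then in cKO. They were 1.07 (wild type) at a minimum of 1 FPKM, 0.45 and 0.58 at 20 FPKM, 0.26 and 0.31 at 50 FPKM, and 0.999 and 0.65 with no minimum. They were 1.02 and 0.70 as deposited, 0.58 and 0.70 scaled by the median of ratios, and 0.72 (cKO) scaled to read totals. The matching counts of members 1.5-fold higher were 26 and 37 at 20 FPKM, 11 and 11 at 50 FPKM, 39 (wild type) by the median of ratios, and 44 (cKO) among members of 1000 bases or more. Members 1.5-fold lower after irradiation numbered 2 in wild type at 1 FPKM, 2 and 2 with no minimum, and 1 in cKO at 20 FPKM, at 50 FPKM, as deposited, by the median of ratios and by read totals.

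For genotype after irradiation the median was -0.19 and -0.30 at pseudocounts of 0.1 and 5, -0.36, -0.14 and -0.10 at minimums of 1, 20 and 50 FPKM, -0.66 with no minimum, -0.67 as deposited, -0.31 by read totals and -0.19 without the 50 most abundant genes. The count 1.5-fold lower was 68 with no minimum and 65 as deposited, and the count higher 1 at 1 FPKM and 2 with no minimum. For genotype at steady state the median was -0.28 and -0.22 at 20 and 50 FPKM and -0.19 by read totals. The count lower was 2 at 1 FPKM and with no minimum, and 0 at 50 FPKM, by read totals and among members of 1000 bases or more.

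Settings chosen after seeing the data were these. Among genes under 1000 bases, the irradiation medians were 0.73 and 0.47 with 17 and 8 members higher, and the steady-state genotype median was -0.11 with 0 lower. Among genes at 50 FPKM or more without ribosomal proteins, the irradiation medians were 0.28 and 0.34 with 12 and 11 higher and 1 lower in cKO, and the genotype medians were -0.23 at steady state, with 0 lower, and -0.11 after irradiation.

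Centring also decided the split of calls over all genes. Of genes past 1.5-fold after irradiation between genotypes, 91.7% were higher in cKO, and 23.2% as deposited. For irradiation in wild type 45.7% were higher, 56.4% as deposited and 31.6% by the median of ratios, and in cKO 50% and 37.5% as deposited. For genotype at steady state the share was 23.4%, and 42.9% by read totals. Depth limits the isoforms below 5 FPKM, where intervals are wide, and not the 78 abundant members, whose counting error is small but whose spread between libraries of 1 group was not measured.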
